A study of Mus musculus with 19 samples.

Results

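The nuclear genes for mitochondrial ribosomal proteins were followed in hippocampal slices of mice that lack Fmr1 and of their wild-type littermates. They were taken as every row of the gene tables whose symbol begins with Mrpl or Mrps and a digit, which gave 77 genes of 14459, with 48 Mrpl and 29 Mrps symbols. The KO group was Fmr1 knockout males and the WT group wild-type male littermates, all on a C57BL/6 background (C57BL/6N in the design text) and 28 to 35 days old. Each biological replicate pooled 8 to 10 slices of 400 µm from 6 to 8 mice of a genotype, cut to leave out CA3, rested for 3 to 4 h at 30 °C before cycloheximide (100 µg/ml), which stalls ribosomes, was given to all groups. From each lysate came a library of cytoplasmic RNA and a library of ribosome-protected mRNA fragments (footprints, RPF), 3 of each for KO and 4 of each for WT. The labels give a germline knockout and no cell type, so the values are averages over all cells of the slice.

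The mitochondrial ribosome (mitoribosome) translates the few mRNAs encoded by mitochondrial DNA, all of which specify core subunits of the respiratory chain and ATP synthase. Its rRNAs come from mitochondrial DNA, whereas all its proteins are encoded in the nucleus, translated on cytosolic ribosomes and imported. The footprints measured here are therefore those of cytosolic ribosomes on the mRNAs for mitoribosomal proteins, and say nothing directly about translation inside mitochondria. FMRP, the product of Fmr1, is an RNA-binding protein of the cytosol that is lost in fragile X syndrome. The comparisons ask how much of these mRNAs is present, how heavily cytosolic ribosomes occupy them, and whether either differs when FMRP is missing.

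Footprint libraries held 15.6 to 22.7 M estimated counts and RNA libraries 4.97 to 9.96 M. Levels are given as TPM, a transcript abundance scaled for length and library depth. The 77 genes were well measured: the lowest count of any of them was 201.2 in a footprint library and 42.3 in an RNA library, and all 77 passed the filter on low counts in every comparison. Fmr1 footprints averaged 4.81 ± 0.222 TPM in KO, against 44.4 ± 1.53 TPM in WT, and no library went against its label. Low counts varied less between replicates than counting noise alone would give, with a median variance over mean of 0.158 in KO and 0.174 in WT footprints and 0.380 in KO and 0.406 in WT RNA for genes of 20 to 50 counts, so counting intervals are not given and p-values may be too small. Whether the counts were adjusted for a batch before deposit is not given in the sources used here and was not tested. In bulk slices, fewer cells of a type and less RNA per cell cannot be told apart.

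The mRNAs for mitoribosomal proteins sat in the upper part of the expression range and differed widely among themselves. In WT the median gene had 62.5 TPM in footprints, at the 80.2nd percentile of all genes, and 61.2 TPM in RNA, at the 75.7th percentile. The middle 50% of the genes lay between 38.4 and 90.6 TPM in footprints and between 41.1 and 91.2 TPM in RNA. Nearly all of the proteins are present in a single copy in each mitoribosome, yet their mRNA levels per length spanned 9.78-fold and their footprint levels 19.0-fold.

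Mrps33, a small-subunit protein with no bacterial homolog, had the highest footprints, with 429, 391, 396 and 396 TPM in the 4 WT libraries, and 161 ± 20.8 TPM in RNA (mean ± SD, n = 4). Mrps21, the homolog of bacterial S21, followed with 267 ± 13.6 TPM in WT footprints, and Mrpl33, the homolog of bacterial L33, with 251 ± 2.11 TPM. Mrps36 had 206 ± 1.89 TPM and Mrpl20, the homolog of bacterial L20, 196 ± 10.4 TPM. Mrps36 carries a mitoribosomal name, but its protein is now placed in the 2-oxoglutarate dehydrogenase complex. These 5 were the top of the footprint order in WT.

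At the low end were genes of the small-subunit series. Mrps9, the homolog of bacterial S9, had 21.2, 20.1, 21.9 and 21.8 TPM in WT footprints. Mrps30, which despite its name is a large-subunit protein, averaged 21.6 ± 0.622 TPM, the pentatricopeptide-repeat protein gene Mrps27 21.6 ± 2.11 TPM, Mrps5 24.4 ± 0.869 TPM and Mrps35 25.1 ± 0.950 TPM. Each of these genes overlaps its neighbour in the order, but all WT libraries of Mrps9 and Mrps30 lie below all of Mrps5 and Mrps35. Over the whole footprint order, 69 of 76 neighbouring pairs overlapped between genes, and in RNA 73 of 76 did.

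The RNA order had other extremes. Mrpl33 was highest with 176 ± 16.5 TPM in WT, followed by Mrpl20 (171 ± 11.9 TPM), Mrps33, Mrps17 (159, 145, 171 and 165 TPM in the 4 libraries), the homolog of bacterial S17, and Mrpl30 (159 ± 7.82 TPM), the homolog of bacterial L30. Mrpl47, the homolog of bacterial L29, was lowest with 18.0 ± 1.54 TPM, beside Mrpl1, the homolog of bacterial L1, with 18.0 ± 1.79 TPM. Mrps22, Mrps31 and Mrps2 followed with 22.3 ± 0.827, 22.6 ± 0.581 and 22.7 ± 3.06 TPM. Mrpl33, Mrpl20, Mrps33 and Mrps17 were thus high in both assays (Mrps17 footprints were 168 ± 6.24 TPM), whereas the low ends of the 2 orders held different genes. Across the 77 genes the Spearman correlation of WT footprint and RNA levels was 0.72, given as a description since both come from the same lysates.

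**Figure D1:**
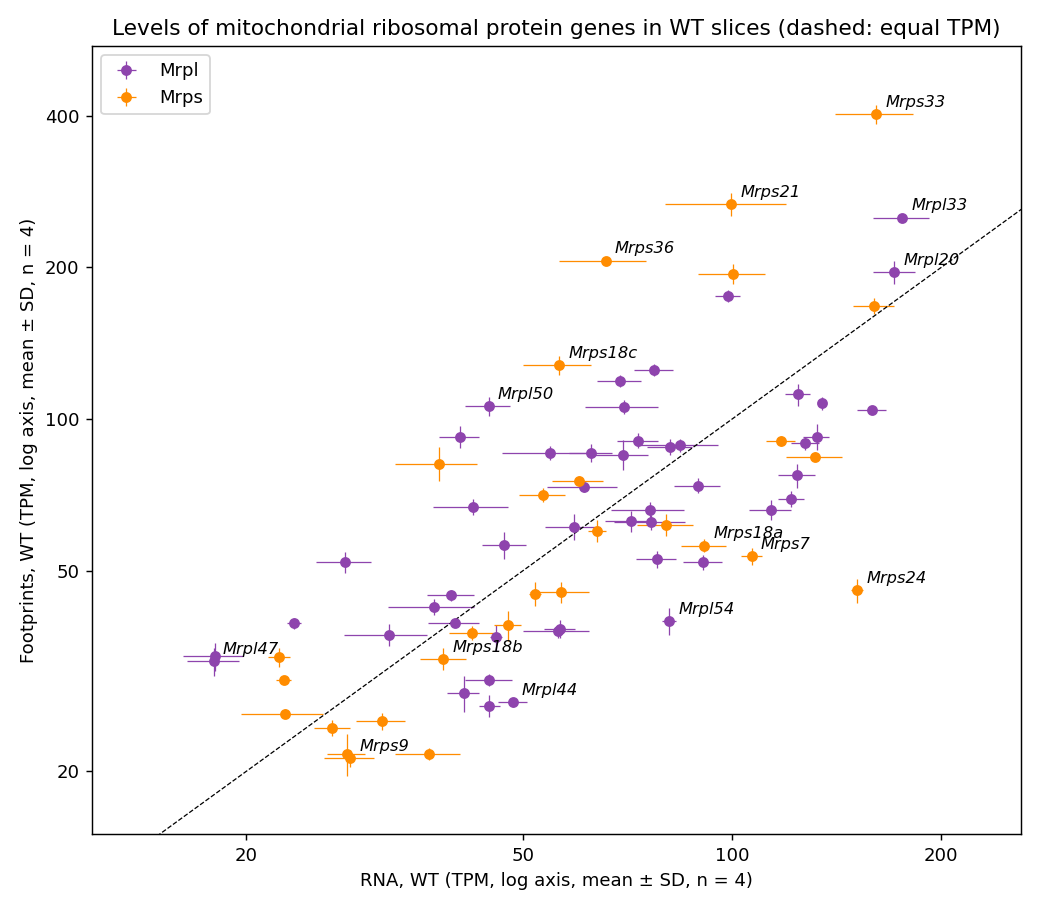
WT levels of the 77 genes, with RNA on the horizontal axis and footprints on the vertical axis (TPM, log axes, mean ± SD, n = 4), Mrpl genes in purple and Mrps genes in orange; the dashed line marks equal TPM. Mrps33, Mrps21 and Mrps36 lie far above the line, and Mrps24, Mrpl54, Mrps7 and Mrpl44 furthest below it.

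These are short mRNAs. The ratio of estimated count to TPM gives the effective length of a gene, and the median of the 77 genes was 0.385 of the median over all genes, at the 11.1th percentile. The shorter the mRNA, the higher its level per length: the Spearman correlation of effective length with level was -0.84 for WT footprints and -0.60 for WT RNA across the 77 genes. Dividing by length enters both quantities, so these correlations are descriptions only.

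Footprints per RNA, the TPM of a gene in footprints over its TPM in the RNA of the same lysate, tell how densely ribosomes sit on an mRNA relative to other mRNAs. The length divisor of TPM cancels in this ratio. The ratio itself still fell with effective length, with a Spearman correlation of -0.38 across the 77 genes and -0.26 over all genes. What part length has in the comparisons below was not tested. The 77 genes had a median ratio of 0.940 in WT, at the 62.9th percentile of all genes, whose median was 0.780, and 53 of 77 lay above that all-gene median. Cytosolic ribosomal protein genes, whose mRNAs carry the 5′ terminal oligopyrimidine sequence that ties their translation to mTOR signalling, had a median ratio of 0.296, and 6 of 78 lay above the all-gene median. Nuclear genes of the respiratory chain and ATP synthase had a median of 1.06, with 60 of 83 above it. The genes for the 2 kinds of ribosomal protein therefore lay on opposite sides of the typical gene in this tissue. The difference was present in each of the 7 lysates: the median of the mitoribosomal genes was 0.918 to 0.978 in the 3 KO and 0.917 to 0.958 in the 4 WT lysates, and that of the cytosolic ribosomal genes 0.289 to 0.330 in KO and 0.286 to 0.328 in WT.

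**Figure D2:**
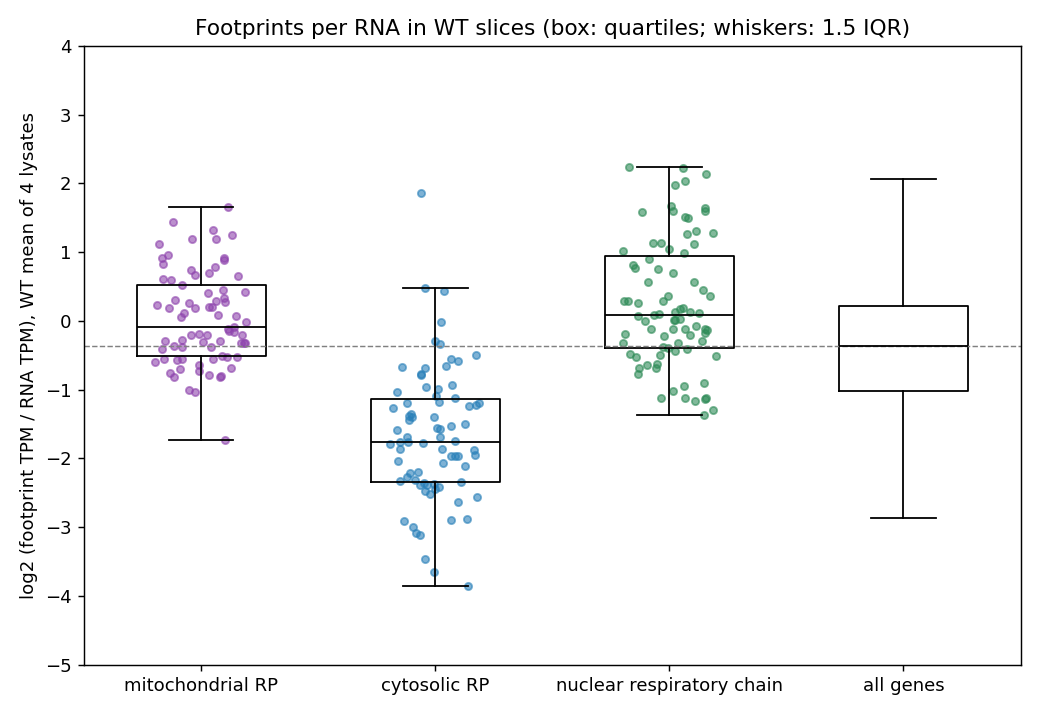
Footprint TPM over RNA TPM in WT on a log2 scale (mean of 4 lysates) for mitochondrial ribosomal protein genes (77 points), cytosolic ribosomal protein genes (78), nuclear respiratory chain genes (83) and all 14459 genes (box alone); boxes give quartiles and the dashed line the all-gene median. The mitoribosomal genes centre near a ratio of 0.940, the cytosolic ribosomal genes near 0.296.

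Within the mitoribosomal genes the ratio spanned 0.302 to 3.16. Mrps36 had the highest, with 3.44, 3.47 and 4.16 in the KO lysates and 3.72, 2.65, 3.30 and 3.06 in the WT lysates. Mrps21 had WT ratios of 3.49, 2.15, 2.24 and 3.23 and Mrps33 of 3.23, 2.16, 2.32 and 2.48. Mrpl50, a large-subunit protein without a bacterial homolog, had 2.31, 2.53, 2.11 and 2.60. Neighbours in this order overlap in WT, whereas every WT ratio of Mrps36 lies above every one of Mrpl50. The 4 genes lay between the 94.0th and 96.8th percentile of all genes.

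Mrps24, the homolog of bacterial S3, stood alone at the low end, with ratios of 0.321, 0.314 and 0.330 in KO and 0.317, 0.302, 0.278 and 0.313 in WT, near the median of the cytosolic ribosomal genes. Its RNA was abundant (151 ± 3.15 TPM in WT) and its footprints were not (45.7 ± 2.50 TPM). Mrpl54 (0.510, 0.474, 0.512 and 0.463), Mrps7, the homolog of bacterial S7 (0.494, 0.480, 0.500 and 0.528), and Mrpl44, which resembles ribonuclease III (0.577, 0.565, 0.538 and 0.590), came next in WT. The WT ratios of Mrpl54 and Mrps7 overlap, and those of Mrps24 lie below all of them.

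The 3 homologs of bacterial S18 show how far paralogs can differ. Mrps18a, which sits in the large subunit, had ratios of 0.602, 0.520 and 0.558 in KO and 0.633, 0.588, 0.581 and 0.664 in WT. Mrps18b had 0.895, 0.840 and 0.869 in KO and 0.846, 0.939, 0.866 and 0.838 in WT, and Mrps18c 2.29, 1.60 and 2.66 in KO and 2.76, 2.29, 1.95 and 2.19 in WT. The order was the same in all 7 lysates, with Mrps18c highest and Mrps18a lowest. In RNA the order of Mrps18a and Mrps18c was the opposite, 91.2 ± 6.85 TPM for Mrps18a and 56.4 ± 6.32 TPM for Mrps18c in WT. The order of the ratio across the 77 genes was nearly the same in both genotypes, with a Spearman correlation of 0.98 between the KO and WT means.

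As a family, the mitoribosomal genes differed little between genotypes. Their summed level was 6171 ± 92.8 TPM in KO footprints and 6078 ± 110.2 TPM in WT footprints, and 5691 ± 189 TPM in KO RNA and 5549 ± 170.1 TPM in WT RNA (SD, n = 3 and 4). The ranges of KO and WT libraries overlapped in both assays. The 48 Mrpl genes summed to 3679.6 ± 52.4 TPM in KO and 3628 ± 62.0 TPM in WT footprints, and the 29 Mrps genes to 2491 ± 53.4 TPM in KO and 2451 ± 57.2 TPM in WT footprints. TPM and the scaling of the tests are relative, so a change shared by all genes could not be seen.

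**Figure D3:**
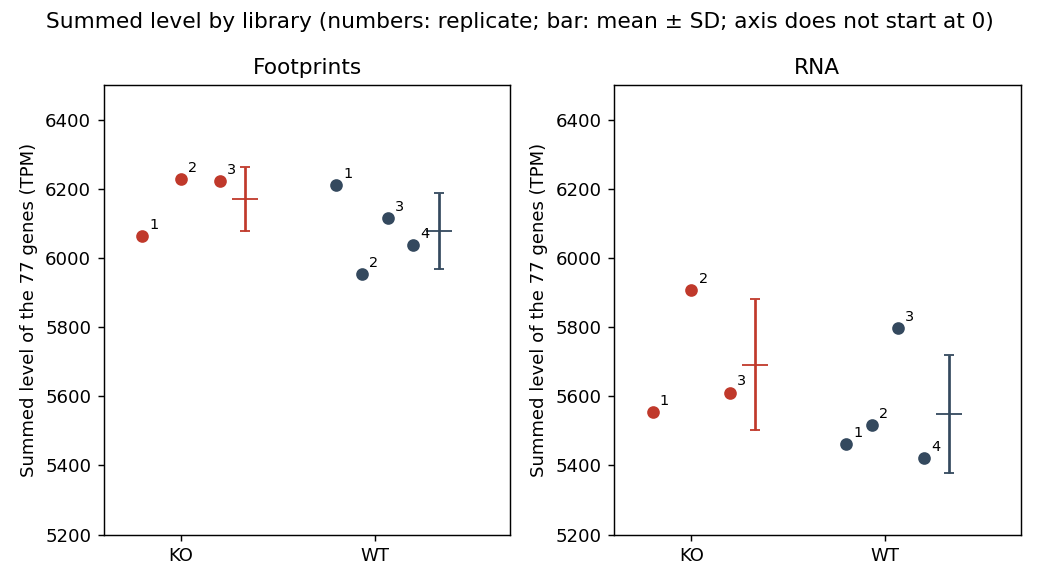
Summed TPM of the 77 genes in each library, footprints on the left and RNA on the right, KO in red left of WT in grey-blue, with replicate numbers beside the points and mean ± SD (n = 3 KO, 4 WT). KO footprints lie at 6064 to 6228 TPM against 5952 to 6211 TPM in WT, and the groups overlap in both panels.

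Gene by gene, footprints were tested with edgeR's quasi-likelihood test across all genes, and a gene was called at a Benjamini-Hochberg adjusted p under 0.05. Of the 77 genes, 7 rose in KO and none fell, or 9.09% higher, while 18.6% of all 14438 tested genes were called, 8.19% higher and 10.4% lower. The share called higher is thus close to the background, and the lack of lower calls in the family was not tested. At an unadjusted p under 0.05 14 genes passed, or 18.2%, against 31.3% of all genes. The median log2 fold change (KO over WT) was 0.03, beside 0.00 over all genes. Of the 77 fold changes 53 were positive (68.8%), against 50.0% of all genes. All changes were small, from -0.11 to 0.22. All KO libraries lay above all WT libraries for 12 genes and below them for 1, and over all genes such separation was seen in 15.1% and 15.6%.

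The 7 genes that rose in KO footprints include 3 of the large-subunit series and 4 of the small-subunit series. Mrps18b (GRCm38 chromosome 17, 35910380 to 35916440), a small-subunit homolog of bacterial S18, had 41.2, 39.4 and 37.3 TPM in the KO libraries, against 32.0, 32.5, 35.8 and 33.4 TPM in the WT libraries. Every KO library was above every WT library, with a log2 fold change of 0.22 ± 0.05 (SE, edgeR adjusted p = 0.00858). Its RNA was also higher in every KO library, 46.1, 46.9 and 43.0 TPM in the KO libraries, against 37.8, 34.6, 41.4 and 39.9 TPM in the WT libraries, but that difference missed the threshold (log2 fold change 0.22 ± 0.08, edgeR adjusted p = 0.125).

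Mrpl16 (chromosome 19, 11770415 to 11774956), the homolog of bacterial L16 near the site where peptide bonds form, had footprints of 51.1, 49.4 and 52.3 TPM in the KO libraries, against 46.0, 43.6, 45.2 and 44.0 TPM in the WT libraries. The groups do not overlap, and the log2 fold change was 0.18 ± 0.04 (edgeR adjusted p = 0.00985). Its RNA gave 49.5, 48.0 and 45.2 TPM in the KO libraries, against 38.7, 36.8, 43.9 and 38.4 TPM in the WT libraries, again without overlap (log2 fold change 0.25 ± 0.08, edgeR adjusted p = 0.0796).

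Mrpl19 (chromosome 6, 81957826 to 81965949), the homolog of bacterial L19 at the interface of the subunits, was the one gene of the family to rise in both assays. Its footprints were 43.8, 45.3 and 43.9 TPM in the KO libraries, against 39.3, 39.0, 40.6 and 38.3 TPM in the WT libraries (log2 fold change 0.16 ± 0.04, edgeR adjusted p = 0.0137). Its RNA was 27.3, 29.7 and 29.8 TPM in the KO libraries, against 23.7, 24.0, 22.7 and 23.2 TPM in the WT libraries (log2 fold change 0.31 ± 0.08, edgeR adjusted p = 0.0475). In both assays the lowest KO library was above the highest WT library. The RNA call was lost under 8 of 17 alternative settings, among them leaving out KO replicate 2 or 3 or any WT replicate, and DESeq2 gave it no adjusted p. The footprint call was lost under DESeq2 and the replicate block.

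Mrps31 (chromosome 8, 22410449 to 22429669), a small-subunit protein without a bacterial homolog, had footprints of 35.8, 32.3 and 35.3 TPM in the KO libraries, against 30.6, 30.2, 30.0 and 30.8 TPM in the WT libraries (log2 fold change 0.17 ± 0.04, edgeR adjusted p = 0.0161). The WT libraries were tightly grouped and KO replicate 2 lay closest to them. The call was lost without KO replicate 1 or without KO replicate 3. Its RNA was 25.0, 24.8 and 23.7 TPM in the KO libraries, against 22.4, 22.8, 22.0 and 23.4 TPM in the WT libraries, without overlap, but at a log2 fold change of 0.11 ± 0.07 it was far from the threshold (edgeR adjusted p = 0.562).

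Mrps30 (chromosome 13, 118380110 to 118387252) and Mrpl38 (chromosome 11, 116131817 to 116138868) both encode large-subunit proteins without a bacterial homolog, Mrpl38 in the central protuberance. Mrps30 footprints were 25.9, 23.5 and 23.7 TPM in the KO libraries, against 21.7, 20.7, 22.0 and 22.1 TPM in the WT libraries, without overlap (log2 fold change 0.16 ± 0.04, edgeR adjusted p = 0.0212), whereas its RNA, 39.3 ± 4.16 TPM in KO and 36.6 ± 3.93 TPM in WT, overlapped. Mrpl38 footprints were 33.3, 33.5 and 31.2 TPM in the KO libraries, against 29.8, 26.3, 31.2 and 27.0 TPM in the WT libraries, where KO replicate 3 and WT replicate 3 overlapped (log2 fold change 0.18 ± 0.06, edgeR adjusted p = 0.0423). The Mrpl38 call was lost under 8 of 18 alternatives. Among these were leaving out KO replicate 1, 2 or 3, leaving out WT replicate 2 or 4, and removing a length trend. The Mrps30 call was lost under 6 of 18. Among these were DESeq2, one fit over both assays, and leaving out KO replicate 1 or WT replicate 2.

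Mrps34 (chromosome 17, 24895120 to 24896289), a small-subunit protein that stabilises the small rRNA, had footprints of 67.8, 71.3 and 66.8 TPM in the KO libraries, against 63.1, 57.3, 64.5 and 62.0 TPM in the WT libraries (log2 fold change 0.14 ± 0.05, edgeR adjusted p = 0.0475). The groups do not overlap, yet the call stood under 6 of 18 alternatives alone. Its RNA was 78.6 ± 5.93 TPM in KO and 80.5 ± 7.41 TPM in WT. The steadiest calls were those of Mrps18b and Mrpl16, kept under 17 of 18 alternatives and lost when the replicate number was added as a block (edgeR adjusted p = 0.0619 and 0.0694). With that block none of the 7 calls stood.

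**Figure D4:**
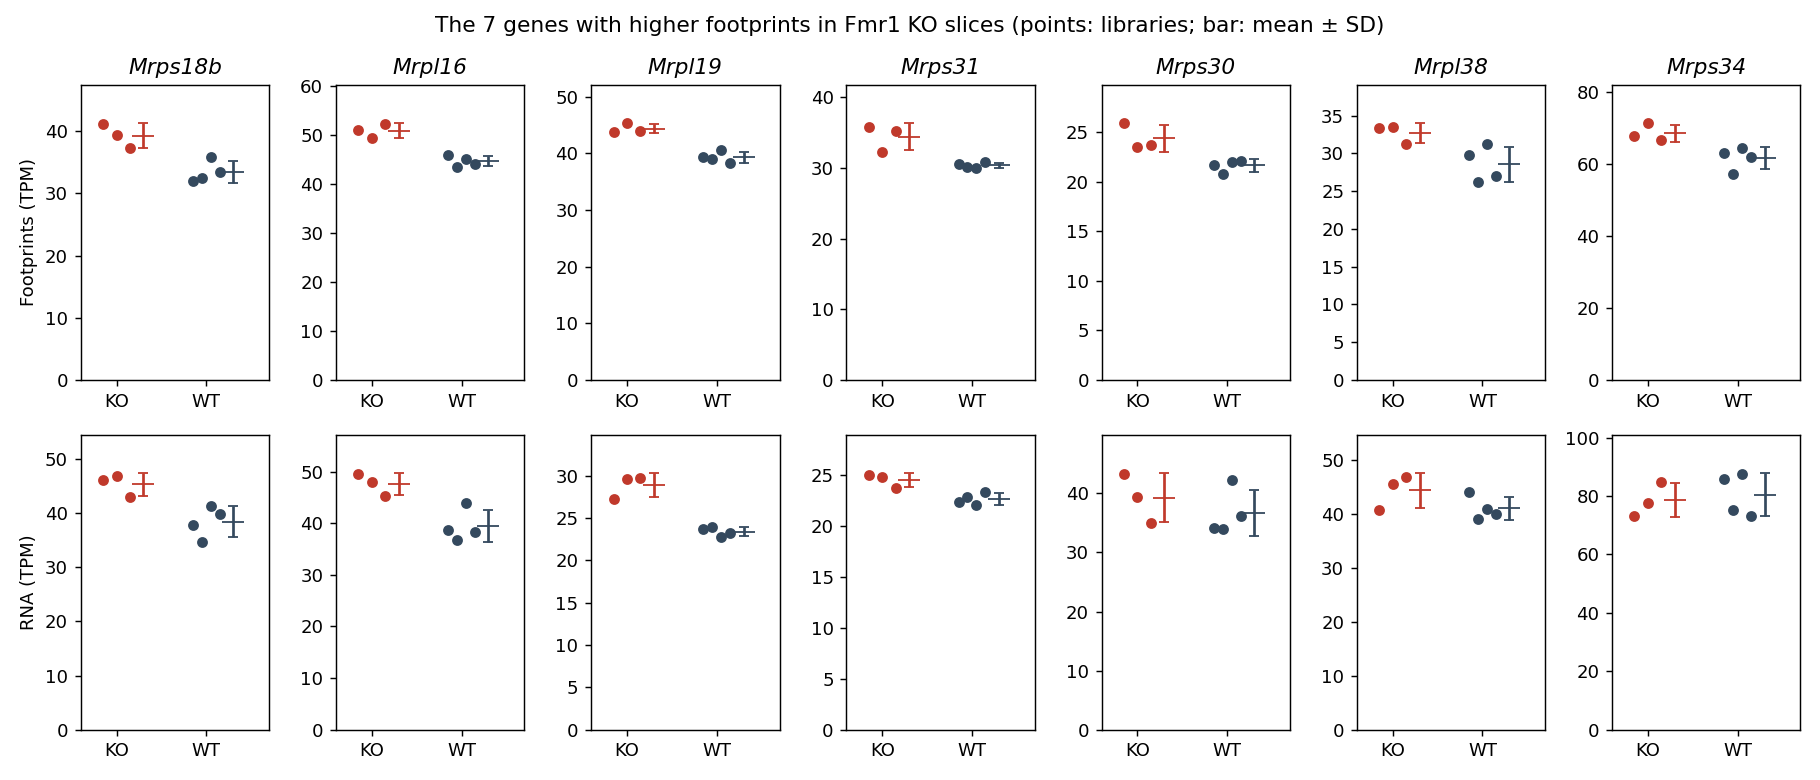
TPM of the 7 genes whose footprints rose in KO, footprints above and RNA below, KO in red left of WT in grey-blue, one point per library with mean ± SD (n = 3 KO, 4 WT) and axes from 0. Footprints separate fully for all but Mrpl38, and RNA separates for Mrps18b, Mrpl16, Mrpl19 and Mrps31.

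Just beyond the threshold were Mrps22 (log2 fold change 0.12 ± 0.04, edgeR adjusted p = 0.0589) and Mrpl4 (0.12 ± 0.04, adjusted p = 0.0592). The lowest footprint fold changes belonged to Mrpl52, Mrpl33 and Mrps21. Mrpl52, a large-subunit protein without a bacterial homolog, had 78.9, 88.8 and 80.0 TPM in the KO libraries, against 89.2, 86.8, 86.8 and 92.1 TPM in the WT libraries, which overlap (log2 fold change -0.11 ± 0.05, edgeR adjusted p = 0.172). Without KO replicate 2 it was called lower, with a log2 fold change of -0.17 (edgeR adjusted p = 0.0436). Mrpl33 gave -0.10 ± 0.05 (adjusted p = 0.217) and Mrps21 -0.10 ± 0.05 (adjusted p = 0.197), both among the 3 genes with the highest WT footprints.

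**Figure D5:**
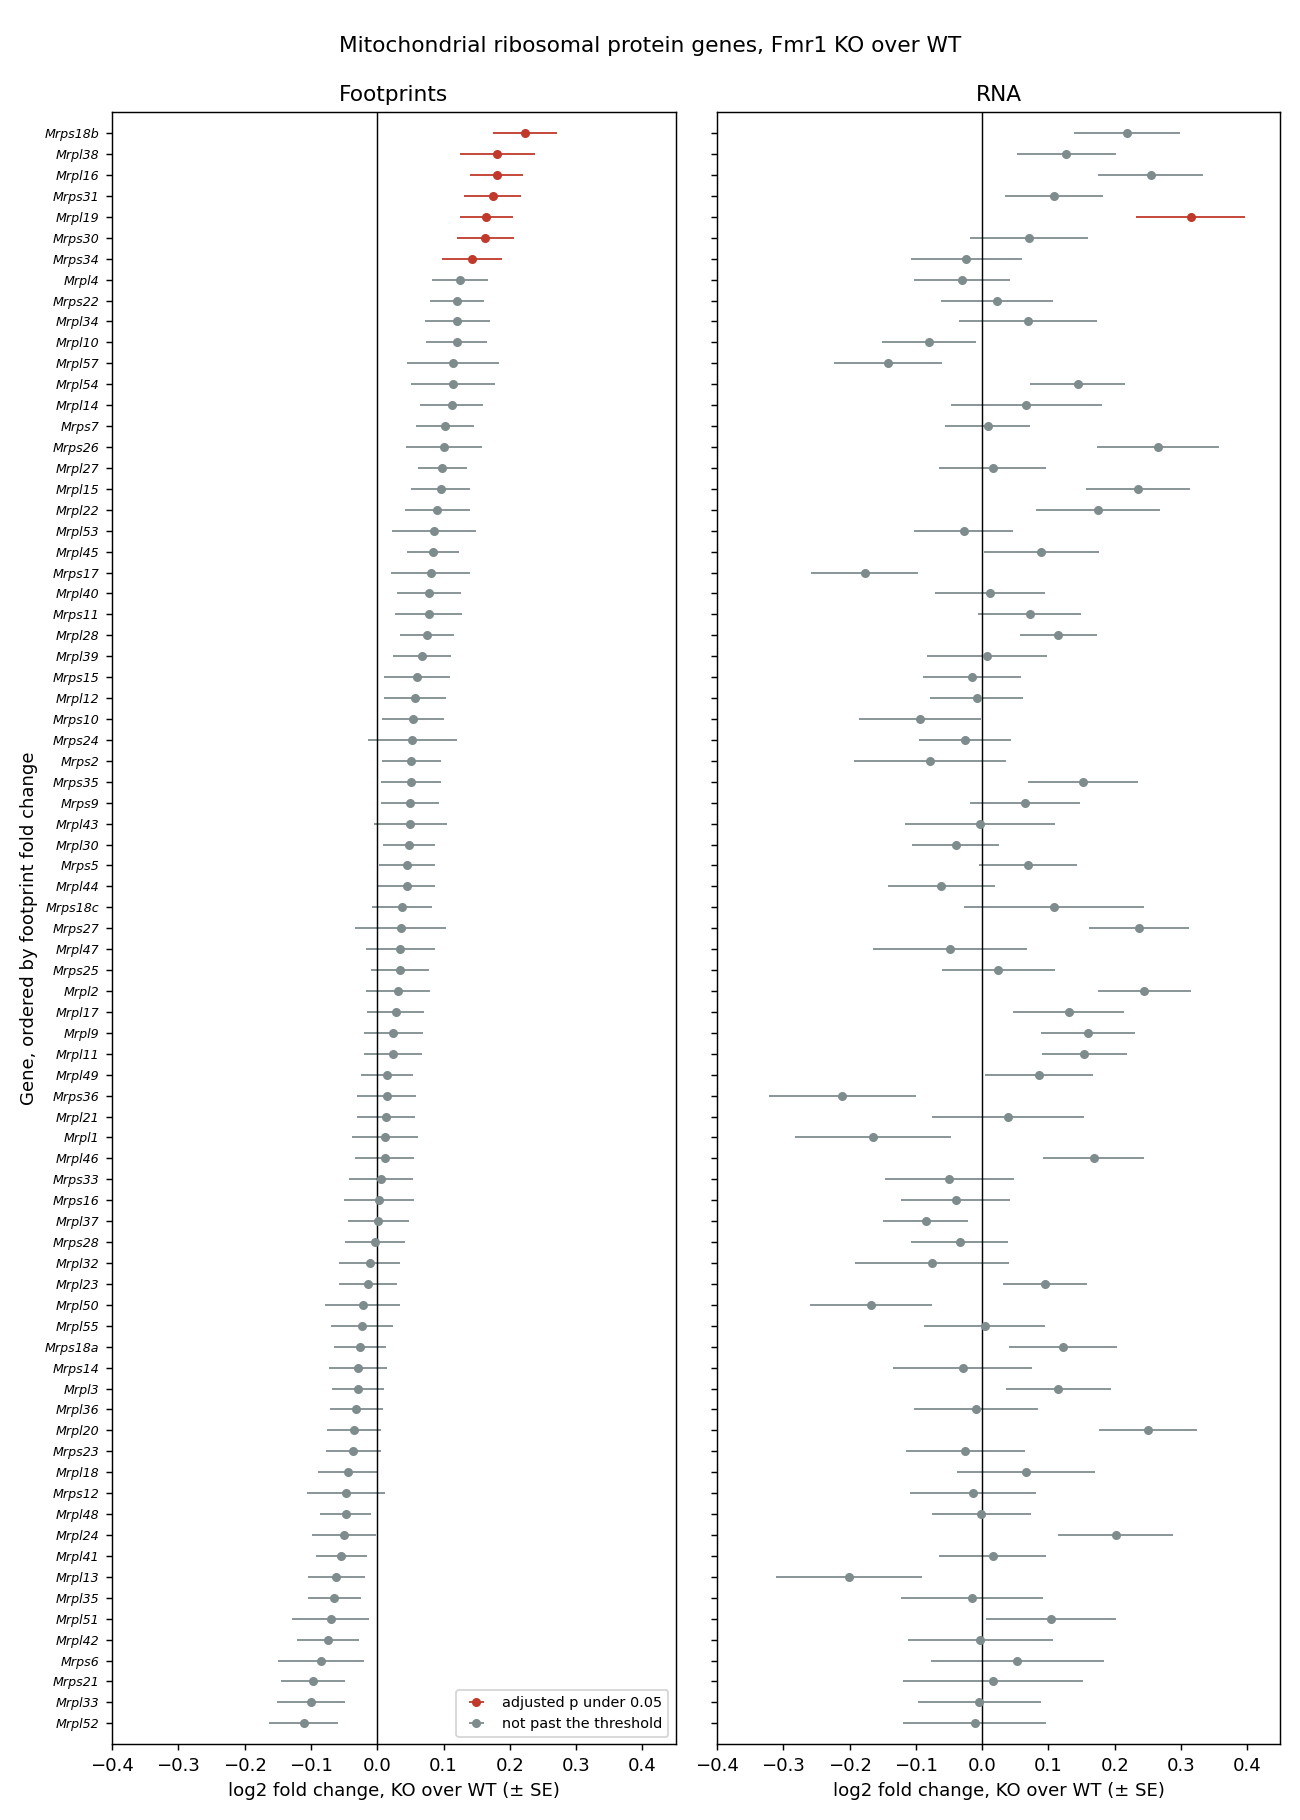
Log2 fold change, KO over WT, with SE for each of the 77 genes in footprints (left) and RNA (right), ordered by the footprint value, with calls at an edgeR adjusted p under 0.05 in red. Footprint values run from -0.11 to 0.22 with 7 calls, all higher in KO, and RNA values from -0.21 to 0.31 with 1 call.

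The genes were also grouped by place in the mitoribosome, and of the 7 called genes only Mrpl38 belongs to one of the 3 sites followed. The stalk recruits translation factors, and all 5 genes placed at or near it (Mrpl10, Mrpl11, Mrpl12, Mrpl53 and Mrpl54) had positive footprint fold changes, from 0.02 to 0.12, with none called. Footprint fold changes were positive for 68.8% of the 77 genes and 50.0% of all genes, and in RNA 2 of these 5 stalk genes were positive. Mrpl10 came nearest, with 55.1, 59.9 and 57.8 TPM in the KO libraries, against 54.8, 50.0, 52.5 and 53.3 TPM in the WT libraries and no overlap (log2 fold change 0.12 ± 0.05, edgeR adjusted p = 0.0945). Without KO replicate 1 it was called, with a log2 fold change of 0.17 (edgeR adjusted p = 0.0366). Its RNA was 73.3 ± 3.70 TPM in KO and 77.9 ± 5.13 TPM in WT (adjusted p = 0.584). Of 6 genes of the central protuberance 1 was called higher (Mrpl38), and of 7 genes around the polypeptide exit tunnel none was, including Mrpl45, which helps tether the mitoribosome to the inner membrane (0.08 ± 0.04, adjusted p = 0.191). Genes with a bacterial homolog gave 3 calls of 47 (6.38%) and those without 4 of 30 (13.3%), all higher in KO, where 8.19% of all genes were called higher and 10.4% lower. Whether any of these groups differs from the others was not tested.

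In cytoplasmic RNA 1 of the 77 genes rose, Mrpl19, and none fell, or 1.30% higher, against 4.89% of 13833 genes tested, 2.11% higher and 2.78% lower. The median log2 fold change was 0.02, beside 0.00 over all genes, and 13 genes (16.9%) passed an unadjusted p of 0.05, against 20.5% of all genes. For 13 genes all KO libraries lay above all WT libraries and for 1 below, where 9.03% and 10% of all genes did so. The next smallest p-values belonged to Mrpl2, the homolog of bacterial L2, with 50.8, 56.3 and 54.8 TPM in the KO libraries, against 46.4, 44.7, 45.2 and 46.5 TPM in the WT libraries (log2 fold change 0.24 ± 0.07, edgeR adjusted p = 0.0554), and Mrpl20, with 191, 214 and 206 TPM in the KO libraries, against 167, 177, 184 and 157 TPM in the WT libraries (0.25 ± 0.07, edgeR adjusted p = 0.0645). Neither gene's RNA overlapped between the groups, and both were called higher without KO replicate 1 (edgeR adjusted p = 0.0433 for Mrpl2 and 0.0489 for Mrpl20).

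Among the larger RNA fold changes that missed the threshold, Mrps26, a small-subunit protein, had 0.27 ± 0.09 (edgeR adjusted p = 0.108). At the other end were Mrps36 (-0.21 ± 0.11, adjusted p = 0.323), Mrpl13, the homolog of bacterial L13 (-0.20 ± 0.11, adjusted p = 0.325), and Mrps17 (-0.18 ± 0.08, adjusted p = 0.227), all overlapping between the groups. RNA replicates were noisier than footprint replicates: the median coefficient of variation of the 77 genes was 7.54% in KO and 7.51% in WT RNA, against 3.87% in KO and 3.79% in WT footprints.

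A change of footprints beyond that of the RNA, called a change in translational efficiency (TE), was tested by an assay by genotype term in a fit of the 14 libraries together. None of the 77 genes was called by edgeR, and of 14429 genes tested 0.0347% were, 0.0139% higher and 0.0208% lower. DESeq2 also called none of the 77, but over all 14429 genes it called 52 higher and 38 lower, more than edgeR did. At an unadjusted edgeR p under 0.05, 6 of the 77 (7.79%) passed, against 10.8% of all genes. The median TE change was -0.01, as over all genes.

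The lowest TE value was that of Mrpl20. Its footprints were 195, 191 and 190.1 TPM in the KO libraries, against 199.8, 184, 208 and 191 TPM in the WT libraries, which overlap, while its RNA was higher in every KO library, and the TE change was -0.29 ± 0.08 on the log2 scale (edgeR adjusted p = 0.146). Mrpl24, the homolog of bacterial L24 at the exit tunnel, had -0.26 ± 0.10 (adjusted p = 0.316) and Mrpl2 -0.22 ± 0.08 (adjusted p = 0.303). The highest were Mrps17 with 0.25 ± 0.11 (adjusted p = 0.375), Mrpl57 with 0.25 ± 0.11 (adjusted p = 0.417) and Mrps36 with 0.22 ± 0.13 (adjusted p = 0.562). The median SE of a TE change in the family was 0.10, against 0.05 for a footprint change. The simulated data had the same dispersion for all genes, with changes set in genes of any level. There the test recovered 4 of 61 TE changes of 0.25 on the log2 scale. For footprint changes of that size it recovered 28 of 55. Small TE changes would thus mostly go uncalled.

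Other genes of mitochondrial translation were set beside the same background, 8.19% of all genes called higher and 10.4% lower in KO footprints. Of 6 mitoribosomal proteins with other symbols 2 rose (33.3%). Dap3, a GTP-binding small-subunit protein, rose to 90.5 ± 3.61 TPM in KO footprints, against 81.1 ± 2.32 TPM in WT (log2 fold change 0.15 ± 0.04, edgeR adjusted p = 0.016), and Aurkaip1 by 0.12 ± 0.04 (adjusted p = 0.0429). Of 30 assembly genes, 4 rose (13.3%) and 1 fell (3.33%) in KO footprints. Those that rose were the GTPase gene Gtpbp6 (0.23 ± 0.05), Eral1, which escorts the small rRNA (0.21 ± 0.06), the protease gene Spg7 (0.14 ± 0.04) and the pseudouridine synthase gene Rpusd3 (0.23 ± 0.06), and the one that fell was Fastkd2 (-0.18 ± 0.05), with edgeR adjusted p from 0.0153 to 0.0431.

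Of 18 genes for translation factors and regulators, 5 rose (27.8%) and 1 fell (5.56%) in KO footprints, where 8.19% of all genes rose and 10.4% fell. Whether these small lists differ from all genes was not tested. The elongation factor genes Tufm (0.14 ± 0.04) and Gfm1 (0.16 ± 0.04), the initiation factor gene Mtif3 (0.19 ± 0.06) and Taco1, an activator of cytochrome oxidase translation (0.17 ± 0.04), rose, as did Lrpprc (0.13 ± 0.04, edgeR adjusted p = 0.0396). Slirp, whose product binds LRPPRC to stabilise mitochondrial mRNAs, fell (-0.13 ± 0.04, edgeR adjusted p = 0.0335). In RNA, where 2.11% of all genes rose and 2.78% fell, 2 of these 18 genes rose and none fell, and 1 of the 30 assembly genes rose. Lrpprc rose by 0.30 ± 0.07 (edgeR adjusted p = 0.0188), Tufm by 0.26 ± 0.07 (0.0357) and the assembly gene Wbscr16 by 0.42 ± 0.10 (0.0298). The assembly genes were expressed well below the ribosomal proteins they serve, with medians of 19.0 TPM in WT RNA and 0.589 in the WT footprint to RNA ratio, against 61.2 TPM and 0.940 for the 77 genes.

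Markers of some cell types moved between the groups beside these results. In footprints 8.19% of all genes were called higher and 10.4% lower. None of 5 general neuronal markers was called in footprints and 1 was called higher in RNA, and their sums overlapped in both. Of 5 interneuron markers 2 were called lower in footprints, and of 5 CA1 markers 2 were higher and 1 lower. Of 5 markers each, mature oligodendrocytes gave 1 higher and 2 lower and astrocytes 1 higher and 1 lower. Of 5 endothelial and pericyte markers 1 was lower. The footprint sums of these further lists overlapped between the groups. All 5 microglial markers fell in KO footprints, with a sum of 216 to 226 TPM in KO and 256 to 267 TPM in WT, and all 4 of meningeal fibroblasts did, at 108 to 116 TPM in KO and 139 to 161 TPM in WT. Of 3 markers of oligodendrocyte precursors 2 fell, at 102 to 112 TPM in KO and 124 to 132 TPM in WT. Both red blood cell markers in the tables, of 4 listed, fell, with a sum of 3.25 to 4.72 TPM in KO and 10.5 to 11.9 TPM in WT. With a floor near 1 TPM for each gene, the KO sums lie close to the floor. The sums of dentate granule cell markers (163 to 177 TPM in KO and 179 to 198 TPM in WT) and of CA3 markers (101 to 104 TPM in KO and 105 to 112 TPM in WT) were also lower in every KO footprint library, with 1 of 4 markers called lower in each list. Of 5 thalamic markers 3 rose, at 141 to 149 TPM in KO and 112 to 142 TPM in WT, and the 3 choroid plexus markers summed to 15.3 to 22.8 TPM in KO and 13.0 to 14.8 TPM in WT, with 1 called higher and 1 lower. In RNA the marker sums of CA3 and of oligodendrocyte precursors overlapped between the groups. Those of microglia, meningeal fibroblasts, red blood cells and dentate granule cells were lower in every KO RNA library too. The thalamic marker sum was higher in every KO RNA library, at 138 to 146 TPM in KO and 95.1 to 125 TPM in WT. Of these 5 thalamic markers 2 were called higher in RNA, where 2.11% of all genes were. The tables hold no value of 0 and have a floor near 1 TPM, so a value above 0 does not show that a marker was detected. The part of these cells in the mitoribosomal values was not tested.

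The 77 genes are spread over 17 chromosomes, with 10 on chromosome 11. RefSeq's GRCm38.p6 promoter windows, from 250 bases before to 50 after a gene's start, were matched to 68 of them by symbol. Nuclear genes of mitochondrial function are known targets of NRF1, of ETS factors such as GABPA and of YY1, so the windows were searched on both strands for GCGCA and GCGC with any base between them (the NRF1 palindrome), CATGCGCA (a shorter NRF1 form), CCGGAAG (ETS) and AANATGGCG (YY1). A gene can have more than 1 window, and a match in any of its windows counted for the gene. The NRF1 palindrome was found for 13 of 68 genes (19.1%), against 10.5% of 10897 genes of the tables and 5.19% of all 27025 genes with a window. The ETS letters were in 25 (36.8%), against 17.7% and 9.93%, the YY1 letters in 10 (14.7%), against 5.29% and 2.76%, and the shorter NRF1 letters in 6 (8.82%), against 4.09% and 2.42%. Any of the 4 was found for 61.8% of the mitoribosomal genes, 63.8% of the cytosolic ribosomal protein genes and 30.9% of all genes of the tables. NRF1 letters of either form can overlap each other, and a match shows letters, not binding.

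Of the 7 genes called in footprints, 4 were matched to a window, and those of Mrps18b and Mrps30 hold such letters and are shown for that reason, 5′ to 3′ on the gene's strand, with the matches in capitals. Mrps18b (chr17:35916391-35916690, minus strand) has the shorter NRF1 letters at -222 and 29 from the start and the ETS letters, on the opposite strand, at 43. Mrps30 (chr13:118387203-118387502, minus strand) has the YY1 letters at 15.
Mrps18b: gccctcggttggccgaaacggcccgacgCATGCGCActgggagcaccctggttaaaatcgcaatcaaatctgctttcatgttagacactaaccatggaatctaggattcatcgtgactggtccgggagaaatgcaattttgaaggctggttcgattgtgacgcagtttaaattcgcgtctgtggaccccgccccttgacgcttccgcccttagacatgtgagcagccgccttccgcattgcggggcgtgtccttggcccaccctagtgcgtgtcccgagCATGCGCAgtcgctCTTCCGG
Mrps30: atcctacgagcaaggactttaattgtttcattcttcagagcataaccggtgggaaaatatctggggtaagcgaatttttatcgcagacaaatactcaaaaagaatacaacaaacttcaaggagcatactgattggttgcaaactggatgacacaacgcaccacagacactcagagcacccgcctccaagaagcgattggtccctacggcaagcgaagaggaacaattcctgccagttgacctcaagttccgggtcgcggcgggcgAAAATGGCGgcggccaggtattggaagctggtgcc
The window of Mrpl16 holds none of these letters. That of Mrps31 (chr8:22411090-22411389, plus strand) holds none either, but it lies inside the gene as placed above. The bases around the first base of Mrps31 were thus not searched. Mrpl19, Mrpl38 and Mrps34 were not matched.

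Many mitoribosomal genes start back to back with a neighbour. Of the 68 genes, 27 (39.7%) have a start within 1000 bases of the start of a gene on the other strand, running away from it, against 18.7% of 10897 genes of the tables. A small overlap of the starts was also allowed, as for Mrpl48 and Rab6a (distance -36 bases). Mrpl46 and Mrps11 form a back-to-back pair with each other, their starts 42 bases apart on chromosome 7. Their RNA was 51.0 ± 3.18 TPM in KO and 44.8 ± 3.45 TPM in WT for Mrpl46 (edgeR adjusted p = 0.221), and 54.4 ± 2.94 TPM in KO and 52.1 ± 1.05 TPM in WT for Mrps11 (adjusted p = 0.713), and neither was called. Of the genes called in footprints, Mrps18b starts 756 bases from Ppp1r10, whose footprints did not pass the test (log2 fold change 0.07 ± 0.06, edgeR adjusted p = 0.468). The counting does not state strand, so reads of genes that overlap on opposite strands cannot be told apart. Annotated pseudogenes (6, of Mrpl23, Mrpl27, Mrpl48 and Mrps36) could share reads with their parents, which makes the values of those 4 genes, Mrps36 at the top of the ratio among them, less certain.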

How the data were processed

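The values are those the authors deposited: estimated counts and TPM per gene for 14 libraries, 3 KO and 4 WT in each assay. Of 19 labelled samples, 5 are not analysed here. Per the submitters' processing notes, the tools were cutadapt 1.7.1, Trimmomatic 0.32, Bowtie2 2.1.0, TopHat2 2.0.9, SAMtools 0.0.19, bedtools and RSEM 1.2.11, and the build was mm10. Every TPM table has a floor near 1 (lowest value of a library 0.880 to 1.00 TPM), far below the 77 genes.

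Deposited estimated counts were rounded and tested in R 4.3.3 by the robust quasi-likelihood F-test of edgeR 4.0.16, after TMM scaling and filterByExpr (minimum count 10), with Benjamini-Hochberg adjustment over all genes tested. Adjusted p-values come from edgeR where no tool is given. The SE was taken from the size of the log2 fold change and F. TE was an assay by genotype term, without one for the shared lysate. Ratios are geometric means over lysates. Genes were named if called, among the 3 highest or lowest fold changes of a contrast, the 5 highest or lowest WT levels or the 4 highest or lowest ratios, along with list genes that were called. Other genes given with values, such as Mrps18a, Mrps18c, Mrps22, Mrpl4, Mrpl10, Mrpl45, Mrpl46 and Mrps11, were picked with their values in view. The members, lists and tests were chosen with earlier results of these data known, and the subunit and site groups come from general knowledge.

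Pooled slices make the replicates biological per the labels. KO and WT replicates share numbers but did not deviate together (r of same-numbered pairs -0.47 to 0.04 in footprints, -0.34 to -0.06 in RNA). Footprint and RNA libraries of a lysate do share their source per the labels (r -0.05 to 0.20), and in the TE fit a term per lysate left the count of called members at 0. Within groups, the contrast of replicates 1 and 2 with the others held 4.11% of the variance in footprints and 2.49% in RNA, where 20% would be an even share, a pattern the labels do not mention. Whether a batch was adjusted for before deposit is not given in the sources used here, and the estimated counts may then not be those of the reads alone. It was tried as a covariate. Other alternatives were DESeq2 1.42.0, limma 3.58.1 on log2(TPM + 1) and log2(TPM + 0.1), other scalings and filters, a length trend removed, one fit over both assays, and leaving out each replicate. The tests were tried on simulated data.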

Additional observations from a re-analysis of the deposited data

Results flagged for a closer look

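In groups of 4 libraries, the highest or lowest library of each named gene was compared with the nearest other by Dixon's test at the 95% level (critical value 0.829). Of 68 groups, 2 were flagged (2.94%), where chance gives about 5%. Mrps33 had 429 TPM in WT footprint replicate 1, with the other WT libraries at 391 to 396 TPM. Mrps36 had 209 TPM in WT footprint replicate 4, with the others at 205 to 206 TPM, a small gap in a tight group. Neither gene was called in a comparison.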

How the results depend on the processing

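The count of mitoribosomal genes called higher in KO footprints was 7, and became 4 with DESeq2, 4 with the replicate set as a covariate and 0 with the replicate block. Other settings gave 5 to 8. Leaving out a replicate gave 4 to 7 higher, lowest without KO replicate 3 or WT replicate 2, and 0 to 1 lower, the 1 being Mrpl52 without KO replicate 2. Without KO replicate 1 the 6 calls shared 3 with the 7, and Mrpl10, Mrpl57 and Mrps17 were added. In RNA the count of 1 became 0 with DESeq2, which gave 31 of the 77 genes, Mrpl19 included, no adjusted p. It became 0 with the replicate block or the replicate set as a covariate, 3 with genes of at least 5 TPM or the length trend removed, 5 with all libraries in one fit, and 0 to 3 without a replicate. The cause was not tested. The TE count stayed at 0 under every setting run. The median footprint fold change stayed positive, from 0.02 to 0.05, and the percentile of the median WT ratio lay between 61.8 and 63.6 over the settings run. Over all genes, the replicate block left 433 higher and 877 lower footprint calls, against 1183 and 1500 without it. DESeq2 gave 938 and 1140, and the replicate set as a covariate 790 and 1161. RNA calls over all genes also moved, from 292 higher and 385 lower in the main fit. They became 576 and 571 in one fit, 401 and 425 with the length trend removed, and 388 and 412 with genes of at least 5 TPM. DESeq2 gave 246 and 289 there, the replicate set 150 and 211, and the replicate block 73 and 132. The lowest counts, and so the least depth, are in RNA.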
